A study of Mus musculus with 4 samples.

Results

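The 38 genes described here encode the SR proteins, the hnRNPs and the kinases and partners that act on SR proteins, as they were counted in B16 cells, a mouse melanoma line. They were chosen by symbol: Srsf followed by a number, any name starting with Hnrnp other than pseudogene names ending in -ps, and Clk1 to Clk4, Srpk1, Srpk2, Tra2a and Tra2b. A row also needed at least 40 reads summed over the 4 libraries. By symbol 39 of the 53465 counted genes matched, and 38 reached that sum: 10 SR genes, 20 hnRNP genes, 4 CLK genes, 2 SRPK genes and 2 Tra2 genes. The row that did not was Srsf12, which had 0 reads in each library.

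The study compared 2 poly(A) RNA libraries of B16 cells given EM-plasma with 2 control libraries. EM-plasma stands for plasma treated with exosome-mimetic nanovesicles, and the treated libraries are titled as 4 h of treatment. The control libraries carry only the word control. The labels do not say whether that plasma was a gas or a blood product, which vehicle the controls had, when the controls were collected, or whether the libraries came from separate cultures. The spread behind every p-value is therefore that between these libraries, 2 per group, and it could be technical only. It was estimated mostly by sharing information across genes, with a prior of 25.5 degrees of freedom in a median total of 27.5.

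SR proteins bind short exonic sequences through RNA recognition motifs and recruit the spliceosome through a tail rich in arginine and serine, while many hnRNPs bind the same pre-mRNAs and favour exon skipping. SRPK kinases phosphorylate the tail in the cytoplasm, which lets SR proteins enter the nucleus, and CLK kinases phosphorylate it further in the nucleus, which releases SR proteins from their storage speckles. Many of these genes control their own output by splicing: a poison exon sends the transcript to nonsense-mediated decay, and retained introns keep transcripts such as that of CLK1 in the nucleus. The deposited counts are per gene, so they sum productive and unproductive transcripts.

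Total counts were 46295133 and 46557637 in the EM-plasma libraries, against 49367932 and 47664388 in the control libraries, and the 38 genes took 1.10% to 1.16% of the counts of a library. All 7 melanocyte markers were detected. Their summed levels were 11128 and 11329 CPM (counts scaled to library size) in EM-plasma libraries, against 10988 and 11065 CPM in control libraries. In both treated libraries Mlana, Pmel, Tyrp1 and Sox10 lay above both controls and Tyr and Mitf below them, while Dct overlapped. The leukocyte markers Ptprc and Itgam and the erythroid markers Hba-a2, Hbb-bs, Hbb-bt and Alas2 were at 0 reads, and the leukocyte list summed to at most 1.93 CPM in any library. The fibroblast list, which the label does not name, summed to 30.3 and 29.3 CPM in EM-plasma libraries, against 29.3 and 27.6 CPM in control libraries. CPM is scaled to the tested genes of a library and its TMM factor, so all levels are relative. In bulk RNA of this kind, fewer cells of a type and less RNA per cell cannot be told apart.

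Of the 38 splicing factor genes 1 rose after EM-plasma, the kinase gene Clk2, and 0 fell. That is 2.63% of the genes, beside 6.21% of all 13664 tested genes (3.34% higher and 2.88% lower) called by edgeR's quasi-likelihood test at a Benjamini-Hochberg adjusted p below 0.05 over all genes. All 38 passed the filter on low counts and entered the fit. At an unadjusted p below 0.05 there were 2 of the 38 genes, Clk2 and Srsf1, beside 19.5% of all tested genes. The 38 log2 fold changes had a median of -0.025, with 12 above 0 and 26 below, beside -0.0027 over all tested genes. With a trend on GC content and length removed from each library the balance turned, with 20 above 0, 18 below and a median of 0.0063, beside 0.0013 over all tested genes. In the reported fit their median absolute log2 fold change was 0.050, beside 0.090 over all tested genes, and the median standard error was 0.047, beside 0.070. The 38 genes were also more abundant, with a median control level of 195 CPM, beside 31.1 CPM over all tested genes. These comparisons were not adjusted for level.

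With the GC content and length trend removed edgeR called 6 of the 38 genes, beside 14.1% of all tested genes. The intervals below are those of the reported fit. They rest on the spread between these libraries, which could be technical only, and do not bound the effect of the treatment. The 95% interval of the fold change lay within 1.2-fold in both directions for 37 of the 38 genes, beside 52.8% of all tested genes. The exception was Clk2. Of the 157 tested genes of the other splicing lists described below, 92.4% had such an interval. These shares were not adjusted for level either. Over the 37 genes that were not called the intervals ran from -0.20 (Srsf1) to 0.24 (Clk4) on the log2 scale. Both treated libraries lay on one side of both controls for 14 of the 38 genes, 5 above and 9 below, beside 49.1% of all tested genes.

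**Figure D1:**
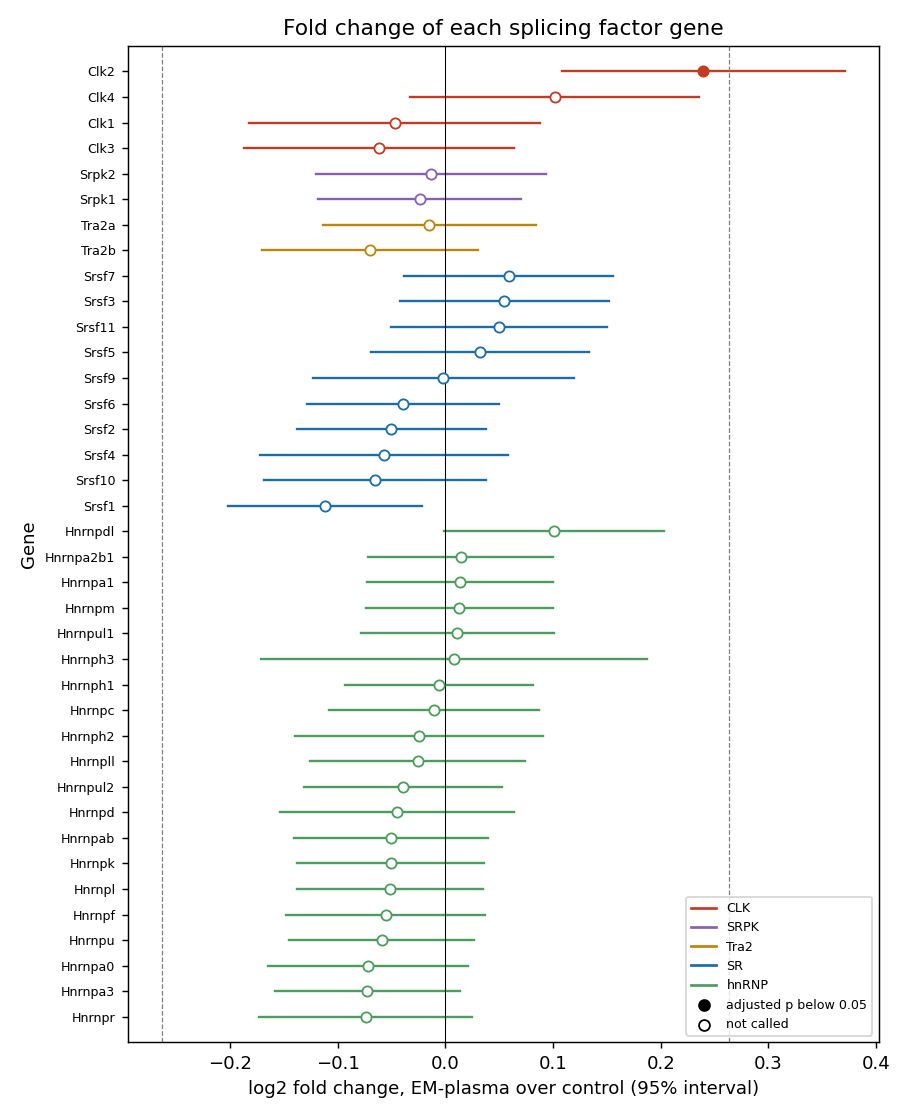
Log2 fold change of EM-plasma over control for each of the 38 genes, with its 95% interval from edgeR's quasi-likelihood fit, coloured by family; filled points passed an adjusted p below 0.05 and dashed lines mark 1.2-fold. Clk2 is the filled point at 0.24, and the intervals of the other 37 genes lie between the dashed lines.

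Clk2 is one of a family of dual-specificity kinases that phosphorylate the arginine-serine tails of SR proteins in the nucleus. It lies on the plus strand of chromosome 3, 89164795 to 89176921 (ENSMUSG00000068917), and no exon of another counted gene overlaps its exons. Within the CLK family the reported fit called Clk2 and not its close relatives. Clk2 was not tested against them, and its interval (0.11 to 0.37) overlapped that of Clk4 (-0.032 to 0.24). With the GC content and length trend removed Clk4 was also called (adjusted p = 0.0272 by edgeR's test). No promoter was found for Clk1. The start regions of Clk2, Clk3 and Clk4, from RefSeq (GRCm38.p6), are shown. Each runs from 250 bases before to 50 bases after the start site, and capitals mark matches to the motifs named after them. Clk2 is at chr3:89164545-89164844 on the plus strand, Clk3 at chr9:57765065-57765364 on the minus strand and Clk4 at chr11:51262864-51263163 on the plus strand. The RefSeq start of Clk2 is the gene start given above. The windows of Clk3 and Clk4 lie inside the GENCODE M21 gene spans, which begin at 57765860 for Clk3 and 51261730 for Clk4.
Clk2: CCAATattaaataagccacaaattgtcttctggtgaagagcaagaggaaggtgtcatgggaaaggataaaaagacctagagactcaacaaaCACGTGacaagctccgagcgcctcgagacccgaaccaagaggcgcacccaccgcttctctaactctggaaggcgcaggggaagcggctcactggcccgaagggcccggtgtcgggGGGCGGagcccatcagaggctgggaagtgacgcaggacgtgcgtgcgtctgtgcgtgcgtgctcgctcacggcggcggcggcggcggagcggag
Clk3: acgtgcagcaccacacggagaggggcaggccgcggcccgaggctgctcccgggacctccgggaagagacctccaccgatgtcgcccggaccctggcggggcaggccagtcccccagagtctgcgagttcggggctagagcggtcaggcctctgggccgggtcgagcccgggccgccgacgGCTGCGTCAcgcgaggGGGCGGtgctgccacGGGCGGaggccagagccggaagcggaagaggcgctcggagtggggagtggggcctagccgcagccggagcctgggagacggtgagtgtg
Clk4: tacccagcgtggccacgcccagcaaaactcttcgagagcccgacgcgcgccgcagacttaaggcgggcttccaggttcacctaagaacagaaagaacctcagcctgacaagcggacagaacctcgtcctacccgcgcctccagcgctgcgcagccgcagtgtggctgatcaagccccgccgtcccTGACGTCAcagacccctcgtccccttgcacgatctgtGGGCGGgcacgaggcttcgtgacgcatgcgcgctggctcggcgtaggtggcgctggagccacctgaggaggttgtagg
Both strands were searched for 9 motifs, and no matches overlap in these 3 windows. Clk2 holds a CCAAT box (CCAAT, position -250 relative to the start site), an E-box (CACGTG, -159) and a GC box (GGGCGG, -44). Clk3 holds the core of the antioxidant response element (TGACNNNGC, -70, minus strand) and a pair of GC boxes at -54 and -39. Clk4 holds a cyclic AMP response element (TGACGTCA, -65) and a GC box at -28. The AP-1 (TGANTCA), ETS (CCGGAAGT), TATA box (TATAAA) and ATF4-type (TGATGNAA) letters were not in these 3 windows.

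Promoters were found for 35 of the 38 genes, all but Clk1, Hnrnpll and Hnrnpul2. They were 49 in all since some genes have several start sites. The GC box was in 40 of these 49 promoters (81.6%), beside 35.7% of all 32851 promoters in the table, and the CCAAT box in 24 (49.0%), beside 37.4%. The antioxidant response element core was in 12 of the 49 (24.5%), beside 12.4%. The E-box was in 6 (12.2%), beside 7.15%, and the ETS letters in 6 (12.2%), beside 3.89%. The other motifs were in 5 or fewer: TATA box letters in 5, beside 13.6% of all promoters, the cyclic AMP response element in 2, beside 1.79%, the ATF4-type letters in 2, beside 3.97%, and the AP-1 letters in 1, that of Hnrnpa1, beside 7.81%. These shares describe letters only. The table of all promoters was not limited to the tested genes, and a gene with several start sites counts once per promoter. Both ATF4-type matches, for example, were in promoters of Hnrnpa2b1.

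Clk2 had 2007 and 2019 reads in EM-plasma libraries, against 1750 and 1785 in control libraries. In CPM these were 43.0 and 43.4 in EM-plasma libraries, against 35.5 and 37.7 in control libraries. Both treated libraries lay above both controls, and they differed from each other by less than the controls did. The rise was 1.18-fold (log2 fold change 0.24, SE 0.064, 95% interval 0.11 to 0.37, adjusted p = 0.0216 by edgeR's quasi-likelihood test). The call ended without control 1 (adjusted p = 0.0631), EM-plasma 1 (0.287) or EM-plasma 2 (0.325), and with no filter on low counts (0.257), while the log2 fold change stayed between 0.20 and 0.28 in every fit run.

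Clk4, a kinase closely related to CLK1, had 45.5 and 45.0 CPM in EM-plasma libraries, against 39.8 and 44.6 CPM in control libraries. Both treated libraries were above both controls, the second control by a small margin. The log2 fold change was 0.10 (95% interval -0.032 to 0.24, adjusted p = 0.422 by edgeR's test). A small noncoding gene on the same strand, Gm25082, covers 1.02% of its exon bases and had 18 and 23 reads in EM-plasma libraries, against 10 and 6 in control libraries. Clk1, the best studied kinase of the family, had 57.8 and 56.4 CPM in EM-plasma libraries, against 54.4 and 63.6 CPM in control libraries. The controls lay on either side of the treated libraries, and the log2 fold change was -0.047 (95% interval -0.18 to 0.088, adjusted p = 0.760 by edgeR's test).

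Clk3, which phosphorylates SR proteins as its relatives do, had 66.2 and 69.9 CPM in EM-plasma libraries, against 75.1 and 66.9 CPM in control libraries. The groups overlapped, and Clk3 did not pass (log2 fold change -0.062, 95% interval -0.19 to 0.064, adjusted p = 0.634 by edgeR's test). Exons of Edc3, a gene on the opposite strand, cover 15.2% of the exon bases of Clk3. The kit was stranded, but the strand setting of the counting is not stated, so how reads there were counted is not known. Summed over the 4 kinases the level was 212.5 and 215 CPM in EM-plasma libraries, against 205 and 212.7 CPM in control libraries. The first EM-plasma sum lay just under the second control, so the sums overlapped.

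**Figure D2:**
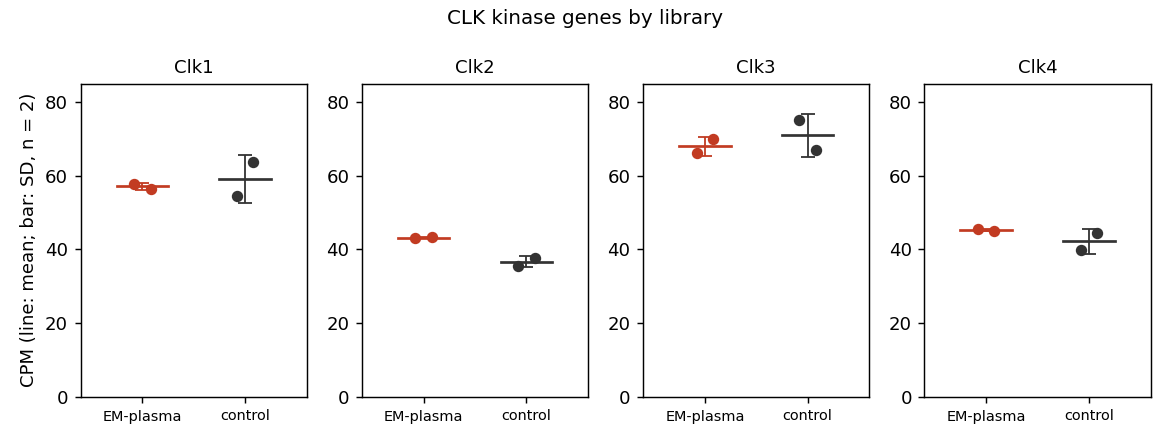
CPM of the 4 CLK kinase genes in each library, EM-plasma left and control right in each panel, with the mean as a line and the SD as a bar (n = 2 per group). Clk2 shows 43.0 and 43.4 CPM in EM-plasma libraries, against 35.5 and 37.7 CPM in control libraries, and in Clk1 and Clk3 the groups overlap.

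The SRPK kinases, which act on SR proteins before they enter the nucleus, did not pass the test. Srpk1 had 198 and 199 CPM in EM-plasma libraries, against 198 and 205 CPM in control libraries (log2 fold change -0.024, 95% interval -0.12 to 0.071, adjusted p = 0.837 by edgeR's test). Srpk2 had 109.5 and 109 CPM in EM-plasma libraries, against 107 and 114 CPM in control libraries (log2 fold change -0.013, 95% interval -0.12 to 0.094, adjusted p = 0.927 by edgeR's test). In both genes the groups overlapped. Exons of Kmt2e on the opposite strand cover 6.99% of those of Srpk2.

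Tra2a and Tra2b encode the 2 transformer-2 proteins, SR-like activators that bind purine-rich exonic enhancers and have tails at both ends. Tra2a had 165 and 167 CPM in EM-plasma libraries, against 163 and 173 CPM in control libraries (log2 fold change -0.015, 95% interval -0.11 to 0.084, adjusted p = 0.910 by edgeR's test). Tra2b had 162 and 171 CPM in EM-plasma libraries, against 171 and 179 CPM in control libraries (log2 fold change -0.070, 95% interval -0.17 to 0.030, adjusted p = 0.466 by edgeR's test). The groups overlapped in Tra2a; in Tra2b the second EM-plasma library lay just above the first control.

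Of the 10 SR genes 0 rose and 0 fell by edgeR's adjusted test, beside 6.21% of all tested genes called. Among them 1, Srsf1, had an unadjusted p below 0.05 (1 of 10, beside 19.5% of all tested genes), and DESeq2 also called 0. The median log2 fold change was -0.021 and the range -0.11 to 0.059. Their summed level was 2259 and 2286 CPM in EM-plasma libraries, against 2261 and 2373 CPM in control libraries. The first EM-plasma sum lay just under both controls and the second between them. Both treated libraries were above both controls in 2 genes and below in 4, and the groups overlapped in the other 4. Thus 60.0% did not overlap, beside 49.1% of all tested genes.

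Srsf1, the founding SR protein SF2/ASF and a proto-oncogene product, had the lowest log2 fold change of all 38 genes. It lies on chromosome 11, 88047373 to 88053755 (ENSMUSG00000018379), and had 479 and 494 CPM in EM-plasma libraries, against 503 and 547 CPM in control libraries. Both treated libraries were under both controls. The log2 fold change was -0.11 (SE 0.044, 95% interval -0.20 to -0.021), with an adjusted p = 0.139 by edgeR's quasi-likelihood test, so it did not pass. It passed without control 1 (log2 fold change -0.17, adjusted p = 0.0282 by edgeR's test), and without control 2 its log2 fold change was -0.047.

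Srsf2, the speckle protein SC35, had 369 and 357 CPM in EM-plasma libraries, against 382 and 370 CPM in control libraries (log2 fold change -0.050, adjusted p = 0.570 by edgeR's test). Exons of Mettl23 and Mfsd11 on the opposite strand cover 15.6% and 9.74% of its exon bases. Srsf3, the smallest SR protein and one that links splicing to mRNA export, had 313 and 327 CPM in EM-plasma libraries, against 293 and 323 CPM in control libraries (log2 fold change 0.055, adjusted p = 0.576 by edgeR's test). In Srsf2 both treated libraries were under both controls, by a narrow margin, and in Srsf3 the groups overlapped.

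Srsf7, a zinc-knuckle relative of SRSF3, had 164 and 167 CPM in EM-plasma libraries, against 158 and 160 CPM in control libraries, all treated values above all control values. Srsf11 had 132 and 131 CPM in EM-plasma libraries, against 128 and 126 CPM in control libraries, also without overlap. Their log2 fold changes were 0.059 and 0.050, with adjusted p = 0.542 and 0.632 by edgeR's test.

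Srsf6 and Srsf4, which encode close relatives of SRSF5, stood on the other side. Srsf6 had 299 and 303 CPM in EM-plasma libraries, against 303 and 316 CPM in control libraries, and Srsf4 had 74.3 and 73.6 CPM in EM-plasma libraries, against 79.1 and 74.8 CPM in control libraries. In both genes the treated libraries were under both controls, by log2 fold changes of -0.039 and -0.057 that did not pass (adjusted p = 0.676 and 0.630 by edgeR's test). A noncoding gene on the opposite strand, Gm12992, covers 43.0% of the exon bases of Srsf4 and had 281 and 253 reads in EM-plasma libraries, against 234 and 281 in control libraries.

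In Srsf5, Srsf9 and Srsf10 the groups overlapped. Srsf5 had 183 and 185 CPM in EM-plasma libraries, against 172 and 188 CPM in control libraries. Srsf9 had 64.6 and 67.3 CPM in EM-plasma libraries, against 63.7 and 68.5 CPM in control libraries. Srsf10, a splicing repressor when it is dephosphorylated, had 181 and 181 CPM in EM-plasma libraries, against 179.5 and 199 CPM in control libraries. In all 3 genes the controls lay outside the treated pair on both sides.

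**Figure D3:**
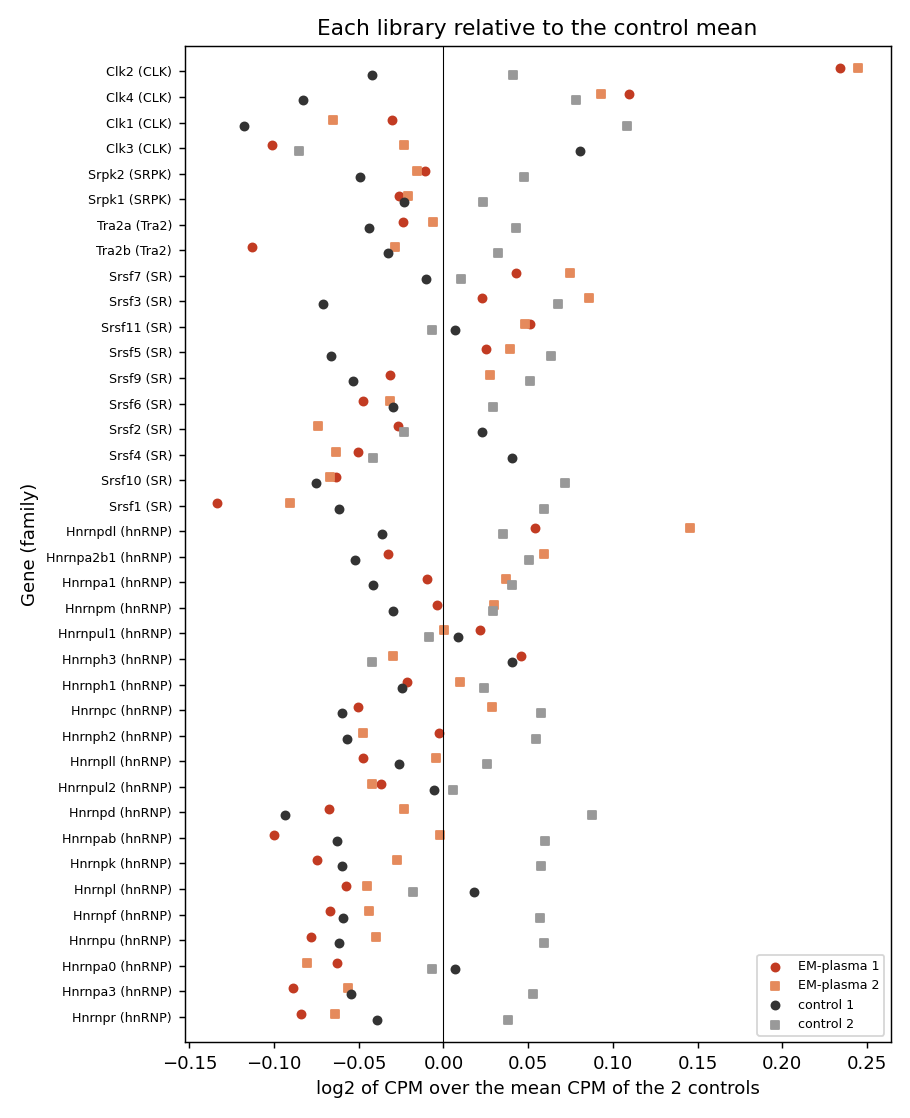
Log2 of each library's CPM over the mean of the 2 controls, 1 line per gene, with EM-plasma libraries in red and orange and control libraries in black and grey. Clk2 is the line where both EM-plasma points lie farthest to the right, and the second control lies right of the first in 30 of the 38 genes.

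Of the 20 hnRNP genes 0 rose and 0 fell by edgeR's adjusted test, beside 6.21% of all tested genes called, and 0 had an unadjusted p below 0.05, beside 19.5%. DESeq2 called 0. The median log2 fold change was -0.033, the range -0.074 to 0.10, and all 20 intervals lay within 1.2-fold. Their summed level was 7873 and 8132 CPM in EM-plasma libraries, against 7917 and 8408 CPM in control libraries, so the sums overlapped. Both treated libraries were above both controls in 1 gene and below in 5, and the groups overlapped in the other 14, so 30.0% did not overlap, beside 49.1% of all tested genes.

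The most abundant was Hnrnpa2b1, which binds and sorts RNAs as well as acting in splicing and stood at rank 38 of all 13664 tested genes by CPM. It had 1034 and 1101 CPM in EM-plasma libraries, against 1019.5 and 1095 CPM in control libraries (log2 fold change 0.014, 95% interval -0.072 to 0.10, adjusted p = 0.898 by edgeR's test). Hnrnpu, the scaffold attachment factor, had 877 and 900.3 CPM in EM-plasma libraries, against 887 and 964 CPM in control libraries (log2 fold change -0.059, 95% interval -0.14 to 0.027, adjusted p = 0.478 by edgeR's test). Hnrnpab had 797 and 853 CPM in EM-plasma libraries, against 818 and 890.0 CPM in control libraries (log2 fold change -0.050, 95% interval -0.14 to 0.040, adjusted p = 0.579 by edgeR's test). In all 3 the groups overlapped and the second library of each group was the higher. Exons of Phykpl on the opposite strand cover 29.1% of the exon bases of Hnrnpab.

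Hnrnpa1, the archetype of splicing repressors and an antagonist of SRSF1 in splice site choice, had 552 and 569.7 CPM in EM-plasma libraries, against 539 and 571 CPM in control libraries. Its log2 fold change was 0.014 (95% interval -0.072 to 0.10, adjusted p = 0.902 by edgeR's test). Reads of processed copies could be shared with it: the 2 rows named Hnrnpa1l2-ps and Hnrnpa1l2-ps2 had 2 to 10 reads in any library. Hnrnpa3, its close relative, had 686 and 701 CPM in EM-plasma libraries, against 702 and 756 CPM in control libraries, with the second EM-plasma library just under the first control (log2 fold change -0.072, adjusted p = 0.361 by edgeR's test).

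Hnrnpdl was the hnRNP gene with the highest log2 fold change and the one whose treated libraries were both above both controls. It had 156 and 166 CPM in EM-plasma libraries, against 146 and 154 CPM in control libraries. The log2 fold change was 0.10 (SE 0.050, 95% interval -0.0016 to 0.20, adjusted p = 0.266 by edgeR's test). Hnrnpd, close by on chromosome 5 and encoding the AU-rich element binding protein AUF1, overlapped between the groups at 170 and 175 CPM in EM-plasma libraries, against 167 and 189 CPM in control libraries.

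The 5 hnRNP genes under both controls in both treated libraries were Hnrnpa3, Hnrnpa0, Hnrnpl, Hnrnpr and Hnrnpul2. Hnrnpa0, an intronless gene that encodes a regulator of AU-rich mRNAs, had 205 and 203 CPM in EM-plasma libraries, against 215 and 213 CPM in control libraries (log2 fold change -0.072, adjusted p = 0.413 by edgeR's test). Hnrnpr had 155 and 158 CPM in EM-plasma libraries, against 160.3 and 169 CPM in control libraries (log2 fold change -0.074, adjusted p = 0.431 by edgeR's test). Hnrnpl, a binder of CA repeats, had 365 and 368 CPM in EM-plasma libraries, against 385 and 375 CPM in control libraries. Hnrnpul2 had 222 and 222 CPM in EM-plasma libraries, against 227 and 229 CPM in control libraries. None of the 5 passed edgeR's adjusted test.

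The other hnRNP genes overlapped between the groups: Hnrnpk, Hnrnpm, Hnrnpc, Hnrnpf, Hnrnph1, Hnrnph2, Hnrnph3, Hnrnpll and Hnrnpul1, with log2 fold changes from -0.055 (Hnrnpf) to 0.013 (Hnrnpm). Hnrnpk, which binds poly(C) tracts, had 729 and 753 CPM in EM-plasma libraries, against 736 and 799 CPM in control libraries. Hnrnph3 was the lowest of the 38 genes, at 16.0 and 15.1 CPM in EM-plasma libraries, against 15.9 and 15.02 CPM in control libraries, and had the widest interval of the hnRNP genes, -0.17 to 0.19. Hnrnpm shares 14.7% of its exon bases with March2 on the same strand, so those reads cannot be assigned to one gene.

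Per kb of exon the order of mean levels ran from Hnrnpab, at 296 CPM per kb in EM-plasma cells and 307 CPM per kb in control cells, down to Hnrnph3, at 4.94 CPM per kb in EM-plasma cells and 4.91 CPM per kb in control cells. Of the 7 genes with the highest level per kb in controls 6 were hnRNP genes and 1, Srsf2, was an SR gene. The 4 CLK genes were all near the bottom, from 6.91 CPM per kb for Clk2 to 8.402 CPM per kb for Clk3 in control cells. In that order Clk2 was at place 32 in EM-plasma cells, against 37 in control cells, and the first 8 places held the same genes in both groups. The lengths count every annotated exon base of a gene, so the level of a gene with much annotated exon sequence, such as Hnrnpr, may be understated.

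**Figure D4:**
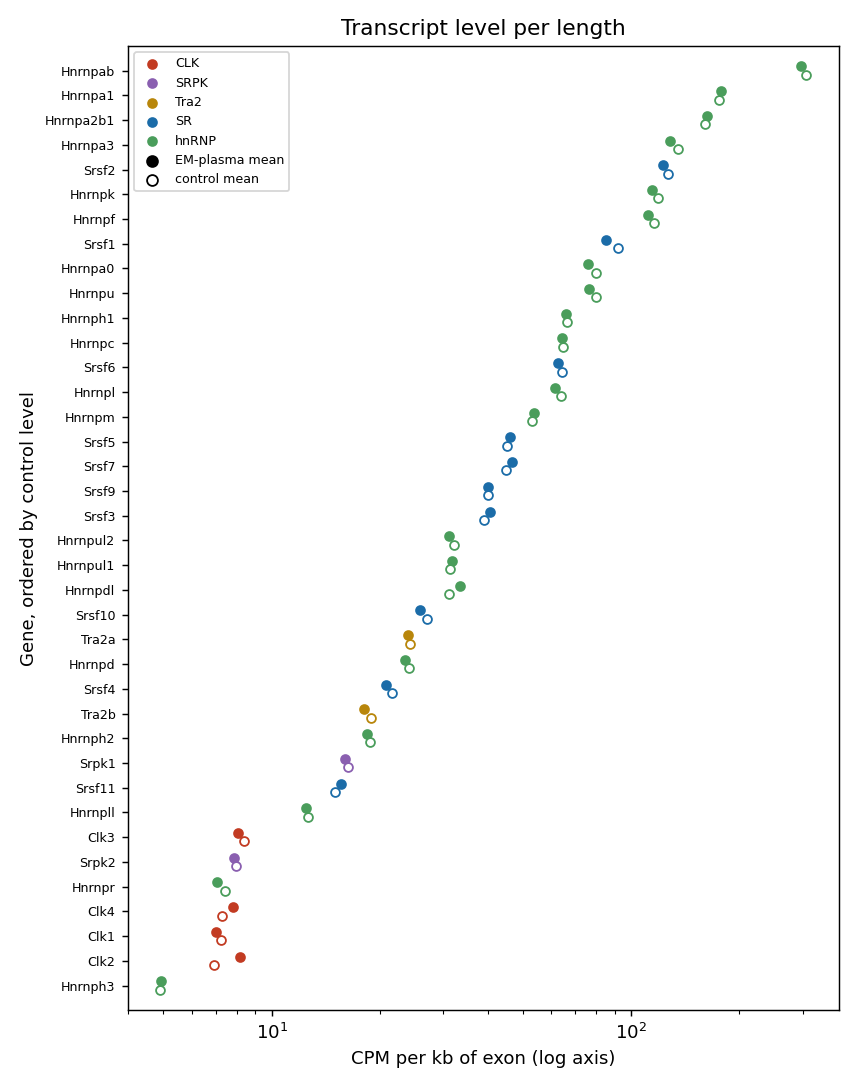
Mean CPM per kb of annotated exon for each gene on a log axis, ordered by the control level, with filled points for EM-plasma and open points for control. Hnrnpab leads at 296 CPM per kb in EM-plasma cells and 307 CPM per kb in control cells, and the CLK genes stand near the bottom.

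Annotated unproductive transcripts were common among these genes. In GENCODE release M21, 27 of the 38 genes (71.1%) list at least 1 transcript classed as a target of nonsense-mediated decay, beside 29.6% of the tested protein-coding genes. Retained-intron transcripts were listed for 30 of them (78.9%), beside 60.2%. The 38 genes also list more transcripts, a median of 9, beside 5 for the tested protein-coding genes. The shares were not adjusted for that. By family the decay class was listed for 9 of 10 SR genes, 10 of 20 hnRNP genes and all 8 kinase and Tra2 genes. The median log2 fold change was -0.024 for the genes with such a transcript and -0.040 for those without. These are properties of the annotation, and the counts per gene do not show which transcripts were present.

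The 2 controls differed from each other across these genes. Control 2 was higher than control 1 in 30 of 38 genes (78.9%), with a median log2 ratio of 0.083, beside 50.1% and a median of 0.00022 over all tested genes. EM-plasma 2 was higher than EM-plasma 1 in 26 of 38 genes, with a median log2 ratio of 0.021. The number of genes below 0 moved with the control used: 26 of the 38 log2 fold changes were below 0 with all libraries, 30 without control 1 and 12 without control 2.

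The difference between the controls moved with base composition. Across the 38 genes the log2 ratio of control 2 to control 1 had Pearson's r = -0.62 with the GC content of the transcripts, beside r = -0.40 over 13647 tested genes with a GC value. The log2 fold change of EM-plasma over control had r = 0.046 and Spearman's rho = -0.056 with GC content across the 38 genes. Over all tested genes r was 0.086 and rho 0.23, and over the 11728 protein-coding ones r was 0.19 and rho 0.31. These are correlations over genes of the same libraries, and genes are not independent replicates. The 38 genes had a median GC content of 44.3%, beside 49.9% over all tested genes.

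**Figure D5:**
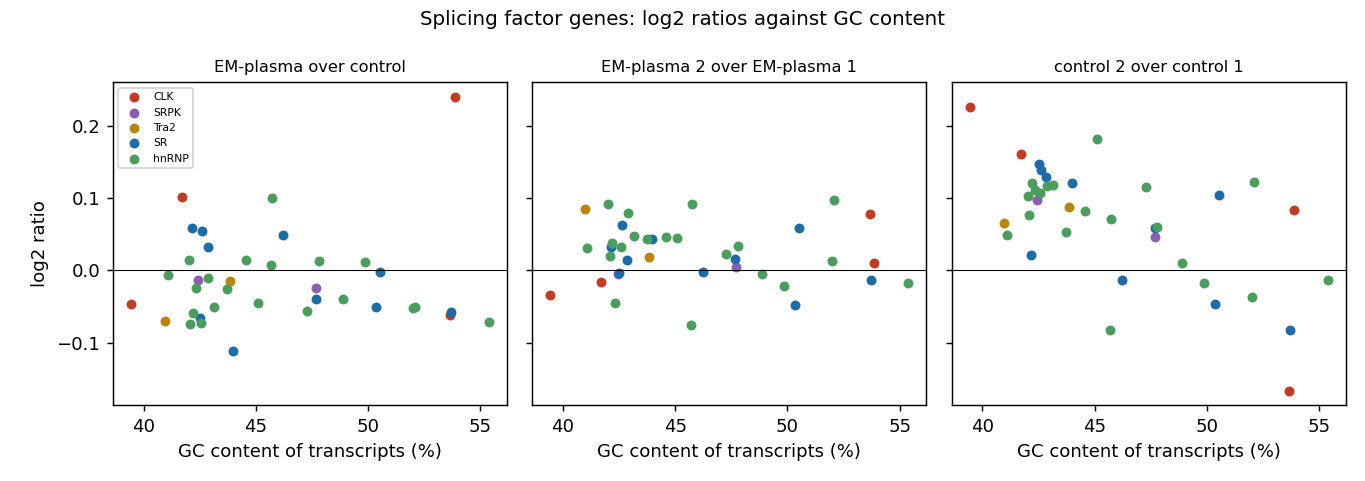
Log2 ratios of the 38 genes against the GC content of their transcripts (%), for EM-plasma over control, EM-plasma 2 over EM-plasma 1 and control 2 over control 1, coloured by family. The third panel slopes down (r = -0.62), and Clk2 is the highest point of the first panel.

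With a smooth trend on GC content and length removed from each library, 6 of the 38 genes were called, beside 14.1% of all tested genes (1925 of 13664). Clk2 (log2 fold change 0.21, adjusted p = 0.00558), Clk4 (0.16, adjusted p = 0.0272), Hnrnpdl (0.13, adjusted p = 0.00378), Srsf3 (0.11, adjusted p = 0.00707) and Srsf7 (0.11, adjusted p = 0.0198) were higher in that edgeR fit, and Hnrnpa0 (-0.10, adjusted p = 0.0141) was lower. The part of base composition in the reported values was not tested further.

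Other parts of the splicing machinery gave 6 called genes among 157 tested (3.82%), 2 higher and 4 lower, beside 6.21% of all tested genes. Their median log2 fold change was -0.0097. These lists held 2 called genes without EM-plasma 1, 1 without EM-plasma 2 and 14 with control 1 left out, where 1.95%, 1.84% and 8.18% of all tested genes were called. Of 41 snRNP and SF3 proteins of the spliceosome core, 7 branch point and U2AF factors, 26 helicases and Prp19-type catalytic factors, 10 nonsense-mediated decay factors and 5 exon junction factors 0 passed edgeR's adjusted test or DESeq2's. In that order 3, 0, 3, 1 and 0 had an unadjusted p under 0.05, beside 19.5% of all tested genes. Of 24 SR-related proteins 1 rose and 1 fell, and of 44 other RNA-binding regulators 1 rose and 3 fell, which is 8.33% and 9.09% called, beside 6.21% of all tested genes.

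Cirbp, the cold-inducible RNA-binding protein, rose 1.33-fold, with 19.99 and 19.9 CPM in EM-plasma libraries, against 15.5 and 14.5 CPM in control libraries (log2 fold change 0.41, SE 0.083, adjusted p = 0.00226 by edgeR's test). Its call held whichever of the 4 libraries was left out. Msi2, the RNA-binding protein Musashi 2, fell, with 129 and 124 CPM in EM-plasma libraries, against 150.3 and 155 CPM in control libraries (log2 fold change -0.27, SE 0.049, adjusted p = 0.000685 by edgeR's test). Its call ended without EM-plasma 2 (adjusted p = 0.158 by edgeR's test).

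Ptbp3, a polypyrimidine tract binding repressor, fell, with 265 and 269 CPM in EM-plasma libraries, against 296 and 316 CPM in control libraries (log2 fold change -0.20, adjusted p = 0.00760 by edgeR's test). Mbnl3, a muscleblind splicing regulator, fell, with 24.4 and 24.5 CPM in EM-plasma libraries, against 27.97 and 29.8 CPM in control libraries (log2 fold change -0.24, adjusted p = 0.0395 by edgeR's test). Among the SR-related proteins Rsrc1 fell, with 55.1 and 54.6 CPM in EM-plasma libraries, against 64.8 and 63.9 CPM in control libraries (log2 fold change -0.23, adjusted p = 0.0144 by edgeR's test). Pnisr rose, with 83.6 and 81.8 CPM in EM-plasma libraries, against 71.6 and 74.2 CPM in control libraries (log2 fold change 0.18, adjusted p = 0.0456 by edgeR's test). The groups did not overlap in any of these genes, nor in 49.1% of all tested genes. They were named because they passed the test on these same libraries, so the separation adds no support. Without EM-plasma 1 the adjusted p by edgeR's test was 0.347 for Ptbp3, 0.394 for Mbnl3, 0.287 for Rsrc1 and 0.583 for Pnisr, and without EM-plasma 2 it was 0.213, 0.362, 0.329 and 0.399. Mbnl3 also lost its call without control 2 (adjusted p = 0.150 by edgeR's test), with library totals alone (adjusted p = 0.0517 by edgeR's test) and by DESeq2 (adjusted p = 0.120), and Pnisr without control 1 (adjusted p = 0.0735 by edgeR's test) and by DESeq2 (adjusted p = 0.0563).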

How the data were processed

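Poly(A) RNA was sequenced with a stranded Illumina kit, per the labels' protocols. CASAVA, TopHat2 2.1.1, HTSeq and edgeR are named without roles, on GRCm38, per the submitters' processing notes. Which annotation release and strand setting were used for counting is not given in the sources used here. Counts deposited by the authors are whole reads per Ensembl gene, and the authors' signal tables, equal to each count times 1 constant per library, served only to check the columns. Symbols came from a supplied table of gene names, matched by Ensembl ID, for 53274 genes (99.6%), coordinates, lengths and transcript classes from GENCODE M21 (GRCm38), and the 191 genes without a symbol held 0.0459% to 0.0526% of a library's counts.

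In R 4.3.3 with edgeR 4.0.16, filterByExpr chose the genes to test, TMM scaled the libraries, and EM-plasma was tested against control with the two-sided quasi-likelihood F test (legacy dispersion, no block). P-values were adjusted by Benjamini-Hochberg over all 13664 genes. Each standard error was obtained as |log2 fold change|/sqrt(F), which also gave the 95% interval. The test was tested on simulated data. Alternatives used DESeq2 1.42.0, voom in limma 3.58.1, other scalings, filters and dispersions, a replicate block, a GC and length offset (lowess, span 0.3), and each library left out, where a lone library is taken to vary as the other group does.

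Members, families and lists were chosen with earlier results of these data known. Called genes, all kinases and Tra2 genes and the 3 most abundant genes of the SR and hnRNP families were named in full by rule, with up to 4 called genes per other list. Other members were added after their values were seen. Ddx39a was not matched by symbol. Intervals cover counting error and the spread of these libraries.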

Additional observations from a re-analysis of the deposited data

How the results depend on the processing

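Among the 38 genes 1 was called in the reported fit and 1 each with DESeq2, voom, RLE factors, library totals, a minimum of 40 reads and the newer dispersion. With no filter on low counts 0 were called, with the replicate block 2 (Clk2, adjusted p = 0.00188, and Srsf1, log2 fold change -0.11, adjusted p = 0.0335, both by edgeR's test) and with the GC and length trend removed 6. Over all genes 849 were called in the reported fit (6.21% of the genes tested in that fit), 557 with DESeq2 (4.51%) and 14 with no filter (0.0611%). With the replicate block 1683 were called (12.3%) and with the trend removed 1925 (14.1%). The other splicing lists gave 6 calls among their 157 tested genes, 0 with no filter, 11 with the replicate block and 23 with the trend removed. Leaving out 1 library gave 0 to 1 called members, 252 (EM-plasma 2 left out) to 1118 (control 1 left out) called genes and 1 to 14 called list genes, with 267 called genes when EM-plasma 1 was left out. The cause of these shifts was not tested. The titles number the libraries 1 and 2 in both groups but state no pairing, and deviations of same-numbered libraries had a correlation of 0.078 over genes.

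The sign of the log2 fold change differed from the reported one in at least 1 alternative for 22 of the 38 genes, none of them called in the reported fit. None was called in the opposite direction. With DESeq2, RLE factors, library totals and the trend removed Srsf9 was at 6.72e-05, 0.000102, 0.0092 and 5.62e-05. With library totals Hnrnph1 was at 0.0052 and Hnrnpc at 0.00050. With the trend removed Hnrnph1 was at 0.049, Hnrnpll 0.017, Clk1 0.022, Tra2a 0.030, Hnrnph2 0.028, Hnrnpc 0.039 and Srpk2 0.036. Leaving out 1 library at a time the log2 fold changes ran as follows: Clk1 -0.16 to 0.073, Clk3 -0.14 to 0.024, Hnrnpa1 -0.027 to 0.059, Hnrnpa2b1 -0.036 to 0.070, Hnrnpab -0.11 to 0.015, Hnrnpc -0.068 to 0.053, Hnrnpd -0.13 to 0.052, Hnrnpf -0.11 to 0.0068, Hnrnph1 -0.030 to 0.022, Hnrnph2 -0.079 to 0.036, Hnrnph3 -0.030 to 0.050, Hnrnpk -0.11 to 0.012, Hnrnpll -0.052 to 0.0038, Hnrnpm -0.016 to 0.046, Hnrnpu -0.12 to 0.0061, Srpk1 -0.047 to 0.0030, Srpk2 -0.061 to 0.040, Srsf10 -0.14 to 0.013, Srsf3 -0.013 to 0.13, Srsf5 -0.031 to 0.10, Srsf9 -0.053 to 0.054 and Tra2a -0.058 to 0.033. Depth and the number of libraries limit the precision to the intervals given with each gene.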
